A study of Mus musculus with 4 samples.

Results

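Sperm cells and their precursors use their own versions of several enzymes of sugar and lactate metabolism. The genes described here are 5 such germ cell isozymes, Ldhc, Pgk2, Pdha2, Cyct and Gapdhs, and 5 somatic partners, Ldha, Ldhb, Pgk1, Pdha1 and Cycs. They were chosen by name, as the rows of the gene count table that carry these symbols, and make up 10 of the 54232 genes in the table. Gapdh, the somatic partner of Gapdhs, is not among the 10 and is given only for that ratio.

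The study compared testes of mice with a Dis3 knockout (KO), called conditional in the study's design text, with testes of wild-type (WT) mice. Both groups were B6D2F1 mice at postnatal day 17, with 2 libraries of whole-testis RNA each. DIS3 is a ribonuclease that works in the RNA exosome, a protein complex which digests RNA from its 3′ end. The Cre driver of the knockout, the cells in which it acts, and whether each library came from 1 animal or from pooled animals are not given in the labels, so the p-values given here reflect spread among libraries, which may be technical.

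Glucose is scarce for meiotic germ cells, which depend on lactate that Sertoli cells deliver and that lactate dehydrogenase turns into pyruvate. In the mitochondrion pyruvate dehydrogenase then turns pyruvate into acetyl-CoA, and cytochrome c carries electrons in the respiratory chain. Pgk2 and Pdha2 are autosomal, intronless copies of the X-linked genes Pgk1 and Pdha1, and the X chromosome is silenced during male meiosis. Germ cell isozymes start to be transcribed in meiotic prophase, and some, such as Gapdhs, chiefly in spermatids, which follow meiosis.

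The KO libraries held 17663416 and 19255782 reads assigned to genes, against 31031920 and 40329170 in the WT libraries. Dis3 itself stood at 39.4 and 42.8 counts-per-million (CPM, scaled by the trimmed mean of M-values, TMM) in KO testes, against 80.0 and 80.4 CPM in WT testes. Whole-gene counts do not show which segment of Dis3 was deleted. Of 25076 genes that passed the low-count filter, 20.3% were called lower and 11.6% higher in KO testes at an adjusted p under 0.05 (edgeR quasi-likelihood test, Benjamini-Hochberg). Their median log2 fold change was 0.051, and it was -0.14 over the 12545 genes with a mean of at least 5 CPM. All 10 isozyme genes passed the filter.

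Of the germ cell isozymes 4 of 5 fell in KO testes and none rose, with a median log2 fold change of -0.65. Of the somatic partners 1 of 5, Ldha, fell and none rose, with a median of 0.11 that became -0.016 when libraries were scaled on Sertoli cell genes. With a filter of at least 1 CPM in 2 libraries 3 somatic partners were called higher, and without KO replicate 2 there was 1. These counts stand beside the shares of 20.3% and 11.6% called over all tested genes. The members that fell were Ldhc, Pgk2, Pdha2, Cyct and Ldha, each called lower by all settings of the test that were tried. Because whole testes were sequenced, fewer cells of a type and less RNA per cell cannot be told apart.

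Markers of several cell types moved with genotype as well. Their counts stand beside the shares of 20.3% lower and 11.6% higher over all tested genes. Of 16 pachytene spermatocyte markers 15 were tested and all 15 fell, with a median log2 fold change of -0.83, and their summed level was 4029 and 3668 CPM in KO testes, against 6129 and 6433 CPM in WT testes. Early meiotic markers fell in 15 of 16 cases, with a median of -0.40. Of 9 markers of differentiating spermatogonia 7 fell and none rose, with a median of -0.41 and a range of -0.81 to -0.076. Among these 9, Kit was at -0.29 and called lower, while Stra8, at -0.14, did not pass the test. Undifferentiated spermatogonia markers fell in 2 of 12 cases and none rose, with a median of -0.0036. Among 20 Sertoli cell markers, genes of the supporting cells, none fell and 5 rose, and their sum was 8439 and 8333 CPM in KO testes, against 7801 and 7600 CPM in WT testes. Macrophage markers rose in 9 of 12 cases, with sums of 305 and 298 CPM in KO testes and 186 and 184 CPM in WT testes. Of 8 adipose and epididymis markers 6 were tested and 5 rose, with a median of 1.27 and sums of 35.6 and 46.4 CPM in KO testes, against 20.1 and 20.7 CPM in WT testes. Of 5 blood markers 3 were tested and all 3 fell, with a median of -1.42 and sums of 5.31 and 4.65 CPM in KO testes, against 10.7 and 13.5 CPM in WT testes. Of 12 spermatid markers 5 passed the filter, of which 2 fell and none rose. Acr, which fell, was at 66.2 and 55.9 CPM in KO testes, against 111.5 and 112.4 CPM in WT testes. Acrv1, which did not pass the test, had 8 and 21 reads in KO libraries and 13 and 8 reads in WT libraries. Its expected background was 11.4 and 12.8 reads in KO libraries and 10.4 and 9.79 reads in WT libraries. These counts do not show that spermatids were present. Leydig cell markers went both ways, with 2 of 11 lower and 4 higher. Peritubular myoid markers did so too, with 1 of 8 lower and 3 higher. Endothelial markers rose in 2 of 8 cases and none fell. No gene of these lists was without reads in all 4 libraries. The part of these shifts in cell markers in the isozyme results was not tested.

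**Figure D1:**
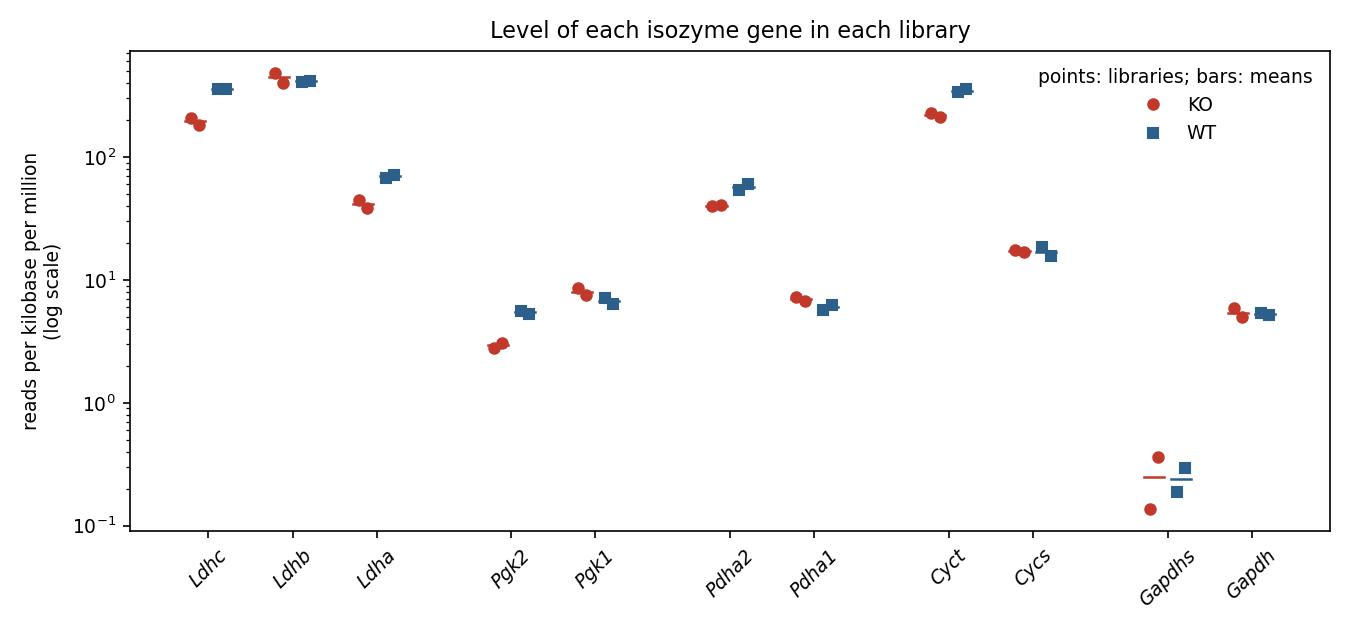
Level of each isozyme gene and of Gapdh in each library, in CPM per kilobase of exon (RPKM) on a log axis, with 2 KO libraries left of 2 WT libraries, and short bars for means. Ldhc, Pgk2, Pdha2, Cyct and Ldha lie lower in both KO libraries, while Gapdhs, at 0.361 RPKM or less, lies under every other gene.

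Lactate dehydrogenase works as a tetramer of subunits from Ldha, the muscle-type form, Ldhb, the heart-type form, and Ldhc, the form of male germ cells. Ldhc (chromosome 7, 46861203 to 46878142, plus strand, GRCm38) was at 330 and 290 CPM in KO testes, against 568 and 561 CPM in WT testes. Both KO libraries lay below both WT libraries, an arrangement found, by any margin, in 32.7% of all tested genes. The change was -0.86 ± 0.065 (SE) on the log2 scale, with an adjusted p of 2.23e-09 (edgeR quasi-likelihood test).

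Ldha lies next to Ldhc on the same strand (chromosome 7, 46841475 to 46855627), with 5576 bases between the annotated genes. It had 147 and 128 CPM in KO testes, against 224 and 237 CPM in WT testes, again without overlap between the groups. Its log2 fold change was -0.75 ± 0.0669 (SE), with an adjusted p of 2.15e-08 (edgeR). Ldha was the only somatic partner whose change passed the test in the fit reported here.

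Ldhb (chromosome 6, 142490249 to 142507957, minus strand) was at 764 and 634 CPM in KO testes, against 639 and 658 CPM in WT testes. The groups overlapped, and KO replicate 1 alone stood above the WT libraries. Its log2 fold change was 0.11 ± 0.0733 (SE), with an adjusted p of 0.267 (edgeR). KO replicate 1 decided this value, since the log2 fold change was -0.056 without it (adjusted p = 0.541), while without KO replicate 2 it was 0.18 (adjusted p = 0.00898, edgeR). Scaled on Sertoli cell genes it was -0.016, so no direction is given for Ldhb.

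Expressed per kilobase of exon, a measure that allows different genes to be compared, Ldhb was the most abundant of the 3 in both groups. Ldhb averaged 445 ± 58.9 RPKM (CPM divided by the exon length in kilobases) in KO testes and 413 ± 8.51 RPKM in WT testes (SD, n = 2 each). Ldhc averaged 196 ± 17.9 RPKM in KO testes and 357 ± 3.04 RPKM in WT testes. Ldha averaged 41.5 ± 4.15 RPKM in KO testes and 69.7 ± 2.63 RPKM in WT testes. In WT libraries Ldhc and Ldhb thus stood close together, and in KO libraries Ldhb stood well above Ldhc. Of the 50-base windows of the longest coding transcript, 27.0% of Ldhb and 16.6% of Ldha, but 0% of Ldhc, also occur in transcripts of other genes. Reads that match several places were not counted, so the levels, shares and ratios of Ldhb and Ldha carry this limit.

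As shares of the summed RPKM of these 3 genes, Ldhc made up 28.2% and 29.4% in KO testes, against 43.1% and 42.0% in WT testes. Ldhb made up 65.8% and 64.5% in KO testes, against 48.8% and 49.5% in WT testes. Ldha made up 6.002% and 6.16% in KO testes, against 8.13% and 8.46% in WT testes. The groups did not overlap for any of the 3 shares. The size of the shares depends on the length used: Ldha has 3310 bases of exon but a longest coding transcript of 1815 bases. The summed level of the 3 genes was 740 and 626 RPKM in KO testes, against 834 and 845 RPKM in WT testes.

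**Figure D2:**
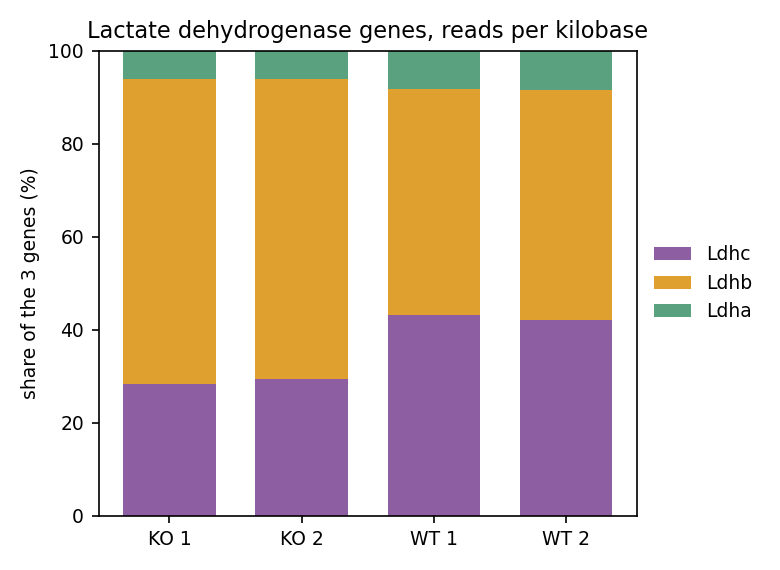
Share of each lactate dehydrogenase gene in the summed reads per kilobase of Ldhc, Ldhb and Ldha, in percent, for KO replicates 1 and 2 and then WT replicates 1 and 2. The Ldhc share is 28.2% and 29.4% in the KO bars and 43.1% and 42.0% in the WT bars, and the Ldhb share is the larger one in each of them.

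A ratio taken within 1 library does not depend on how libraries are scaled to each other. The ratio of Ldhc to Ldhb, in reads per kilobase, was 0.429 and 0.455 in KO testes, against 0.883 and 0.848 in WT testes. The KO ratios were 0.511 times the WT ratios, a log2 difference of -0.97. The ratio of Ldhc to Ldha was 4.71 and 4.77 in KO testes, against 5.30 and 4.97 in WT testes. Here too both KO libraries were below both WT libraries, but the log2 difference was only -0.12. The ratio of Ldhb to Ldha was 10.96 and 10.46 in KO testes, against 6.001 and 5.857 in WT testes, 1.81 times as high in KO testes (log2 difference 0.85). The size of both ratios to Ldha depends on the length used: with the longest coding transcript, a choice made after seeing the data, Ldhc over Ldha was 2.98 and 3.01 in KO testes, against 3.35 and 3.14 in WT testes, and Ldhb over Ldha was 7.23 and 6.91 in KO testes, against 3.96 and 3.87 in WT testes. With 2 libraries against 2, an exact two-sided permutation test cannot go below a p of 0.333, the value reached by every ratio reported here except that of Gapdhs to Gapdh (p = 1.0). After adjustment over the 7 ratios computed it was 0.389.

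The windows of 250 bases before the RefSeq start (GRCm38.p6) of the LDH genes are shown because the neighbours Ldhc and Ldha fell together while the level of Ldhb overlapped between groups. Capitals mark matches, on either strand, to TGACG (the cAMP response half-site), TGACGTCA (the full element, which holds the half-site on both strands), GGGCGG (a GC box) and TAACNG (the core bound by MYB proteins).
Ldhc, chr7:46861013-46861262, plus strand: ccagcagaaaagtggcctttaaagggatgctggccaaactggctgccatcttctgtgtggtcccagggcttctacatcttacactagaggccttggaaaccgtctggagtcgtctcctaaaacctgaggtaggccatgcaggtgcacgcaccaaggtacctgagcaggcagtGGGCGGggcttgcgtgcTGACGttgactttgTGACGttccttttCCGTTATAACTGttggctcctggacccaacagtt
Ldha, chr7:46845554-46845803, plus strand: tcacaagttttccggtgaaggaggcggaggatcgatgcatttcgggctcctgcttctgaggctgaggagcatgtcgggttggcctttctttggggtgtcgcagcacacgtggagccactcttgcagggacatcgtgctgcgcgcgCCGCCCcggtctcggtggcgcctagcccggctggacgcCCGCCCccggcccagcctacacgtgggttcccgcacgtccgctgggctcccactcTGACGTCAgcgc
Ldhb, chr6:142507958-142508207, minus strand: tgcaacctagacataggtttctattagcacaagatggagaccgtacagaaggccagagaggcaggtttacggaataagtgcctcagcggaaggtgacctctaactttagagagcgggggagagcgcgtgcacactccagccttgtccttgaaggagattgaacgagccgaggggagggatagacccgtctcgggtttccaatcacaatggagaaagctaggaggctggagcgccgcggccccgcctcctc
The Ldhc window held 2 half-sites, 1 GC box and 2 MYB cores, and it reaches 60 bases past the gene start in the count table. Only the GC box lies wholly before that start. The first half-site spans it, and the second half-site and both MYB cores lie past it. The Ldha window held 1 full element, which counts as 2 half-sites, and 2 GC boxes. It begins a transcript that starts 4329 bases inside the annotated gene. The Ldhb window held none of the 4 patterns. Over 32817 RefSeq promoter windows of the same length, 17.7% held TGACG, 1.55% TGACGTCA, 32.7% GGGCGG and 19.8% TAACNG. The windows also differed in CpG dinucleotides, with 8 in Ldhc, 25 in Ldha and 14 in Ldhb, against a median of 6 over all windows. A match is a run of letters and not a shown site.

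Phosphoglycerate kinase makes ATP in the second part of glycolysis. Pgk2 (chromosome 17, 40207018 to 40208609, minus strand) was at 4.49 and 4.84 CPM in KO testes, against 8.94 and 8.44 CPM in WT testes. These levels rest on 82 and 100 reads in KO libraries and 265 and 321 reads in WT libraries, and the groups were well apart. A log2 fold change of -0.89 ± 0.165 (SE) passed the test (adjusted p = 0.000197, edgeR).

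Pgk1, the X-linked partner (106187100 to 106203699, plus strand), was at 19.1 and 16.9 CPM in KO testes, against 15.99 and 14.2 CPM in WT testes. Both KO libraries were above both WT libraries, an arrangement found in 35.6% of all tested genes. The log2 fold change of 0.26 ± 0.115 (SE) missed the threshold (adjusted p = 0.0896, edgeR). With a filter of at least 1 CPM in 2 libraries it was 0.32 with an adjusted p of 0.0250, under which the median of all genes moved up by 0.068. Pgk1 also shares sequence with processed copies elsewhere: 68.0% of the 50-base windows of its longest coding transcript occur in transcripts of 5 other genes, and reads that match several places were not counted.

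Per kilobase, Pgk1 averaged 8.03 ± 0.709 RPKM in KO testes and 6.73 ± 0.564 RPKM in WT testes, and Pgk2 averaged 2.93 ± 0.158 RPKM in KO testes and 5.46 ± 0.222 RPKM in WT testes (SD, n = 2 each). The ratio of Pgk2 to Pgk1 was 0.330 and 0.404 in KO testes, against 0.788 and 0.838 in WT testes. The 95% intervals for counting error (exact Clopper-Pearson) ran from 0.256 to 0.421 and from 0.320 to 0.506 in the KO libraries, and from 0.675 to 0.918 and from 0.728 to 0.964 in the WT libraries. No KO interval reached a WT interval. The KO ratios were 0.449 times the WT ratios (log2 difference -1.15), the largest shift in size among the 7 ratios.

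Pyruvate dehydrogenase turns pyruvate into acetyl-CoA, and its catalytic E1 alpha subunit comes from Pdha1 in somatic cells and from Pdha2 in germ cells. Pdha2 (chromosome 3, 141210004 to 141212355, minus strand) was at 93.5 and 95.4 CPM in KO testes, against 127 and 142 CPM in WT testes. The groups did not overlap. Its log2 fold change was -0.51 ± 0.066 (SE), with an adjusted p of 2.84e-06 (edgeR), the smallest in size among the members that fell.

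Pdha1 (chromosome X, 160122209 to 160138413, minus strand) was at 26.9 and 25.1 CPM in KO testes, against 21.2 and 23.5 CPM in WT testes. As with Pgk1, both KO libraries were above both WT libraries, while the log2 fold change of 0.22 ± 0.0976 (SE) missed the threshold (adjusted p = 0.0916, edgeR). With the filter of at least 1 CPM it was 0.28 with an adjusted p of 0.0208.

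The ratio of Pdha2 to Pdha1 was 5.52 and 6.03 in KO testes, against 9.50 and 9.59 in WT testes, 0.604 times as high in KO testes (log2 difference -0.73). Pdha2 remained the larger of both in every library: its share of their summed RPKM was 84.7% and 85.8% in KO testes, against 90.5% and 90.6% in WT testes. For phosphoglycerate kinase the germ cell form was the smaller one throughout, at 24.8% and 28.8% in KO testes, against 44.1% and 45.6% in WT testes. The X-linked partner thus stood above Pgk2 and below Pdha2 in each of the 4 libraries.

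Cytochrome c moves electrons to cytochrome c oxidase and, once released from mitochondria, starts apoptosis. Cyct, the testis form (chromosome 2, 76353942 to 76360450, minus strand), was at 150 and 140 CPM in KO testes, against 221 and 234 CPM in WT testes. Its log2 fold change was -0.65 ± 0.0617 (SE), with an adjusted p of 3.70e-08 (edgeR). Both KO libraries lay below both WT libraries.

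Cycs, the somatic form (chromosome 6, 50562563 to 50566538, minus strand), was at 59.5 and 57.3 CPM in KO testes, against 62.6 and 53.2 CPM in WT testes. The KO values lay between the WT values. The log2 fold change was 0.015 ± 0.0796 (SE), with an adjusted p of 0.902 (edgeR), and other scalings gave -0.089 to -0.11. Cycs has many processed copies, and 28.5% of its 50-base windows occur in transcripts of 76 other genes.

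The ratio of Cyct to Cycs was 13.1 and 12.7 in KO testes, against 18.4 and 22.9 in WT testes. The KO ratios were 0.629 times the WT ratios (log2 difference -0.67), and the WT libraries differed from each other more than the KO libraries did. Cyct made up 92.9% and 92.7% of the summed RPKM of both genes in KO testes, against 94.8% and 95.8% in WT testes. The share moved little because Cyct was far above Cycs in all 4 libraries.

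**Figure D3:**
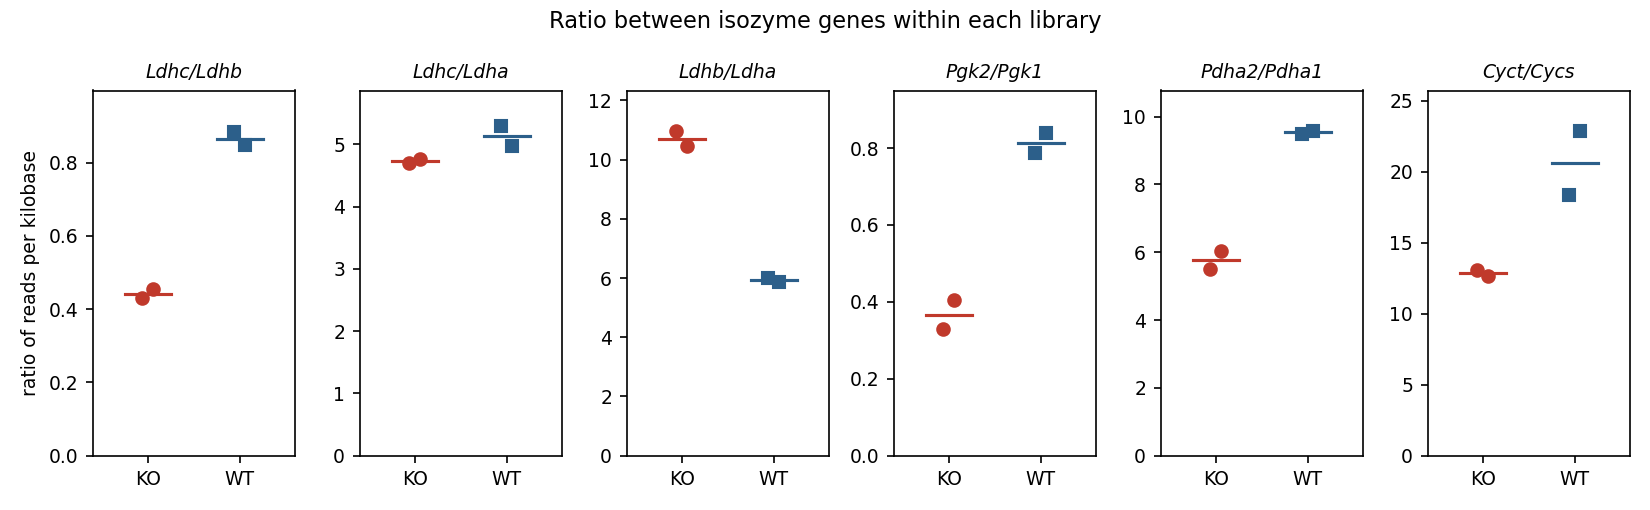
Ratio of reads per kilobase between isozyme genes within each library, 1 panel for each of 6 pairs of genes with its own linear axis from 0, points for libraries and bars for means, KO left of WT. In the panels shown, which leave out Gapdhs over Gapdh, KO ratios lie below WT ratios except for Ldhb over Ldha, where they are 10.96 and 10.46 in KO testes against 6.001 and 5.857 in WT testes; the smallest gap is that of Ldhc over Ldha.

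The 250 bases before the RefSeq start (GRCm38.p6) of Pgk2, Pdha2 and Cyct are shown as the promoters of the other germ cell forms that fell.
Pgk2, chr17:40208610-40208859, minus strand: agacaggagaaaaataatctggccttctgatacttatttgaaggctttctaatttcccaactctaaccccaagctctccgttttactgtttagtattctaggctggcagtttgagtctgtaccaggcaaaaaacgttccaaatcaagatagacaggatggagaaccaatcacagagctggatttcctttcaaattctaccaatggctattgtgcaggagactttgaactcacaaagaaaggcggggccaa
Pdha2, chr3:141212356-141212605, minus strand: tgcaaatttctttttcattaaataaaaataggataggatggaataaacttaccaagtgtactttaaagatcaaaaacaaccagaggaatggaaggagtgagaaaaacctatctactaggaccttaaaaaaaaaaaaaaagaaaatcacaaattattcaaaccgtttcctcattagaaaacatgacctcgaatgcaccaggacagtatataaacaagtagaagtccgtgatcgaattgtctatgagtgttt
Cyct, chr2:76360454-76360703, minus strand: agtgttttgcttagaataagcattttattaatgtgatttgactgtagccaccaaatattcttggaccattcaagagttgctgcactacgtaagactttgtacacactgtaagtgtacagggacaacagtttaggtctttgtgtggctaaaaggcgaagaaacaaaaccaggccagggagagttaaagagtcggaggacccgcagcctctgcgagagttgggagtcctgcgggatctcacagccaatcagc
None of the 4 patterns searched in the LDH windows occurred in these letters. They held 3 CpG in Pgk2, 4 in Pdha2 and 6 in Cyct, at or under the median of 6. The windows of their partners held 17 CpG in Pgk1, 15 in Pdha1 and 23 in Cycs. The Cycs window had 1 full TGACGTCA element, 3 half-sites of which 2 lie in that element, and 1 MYB core, and that of Pgk1 had 1 GC box. The windows of the 5 somatic partners among the 10 genes held 14 to 25 CpG, and those of the 5 germ cell forms held 1 to 8. The window of Gapdh held 8, as many as that of Ldhc.

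Gapdhs, the glyceraldehyde-3-phosphate dehydrogenase of the sperm tail (chromosome 7, 30729775 to 30743681, minus strand), had 4 and 12 reads in KO libraries, against 9 and 18 reads in WT libraries. A background of 5.05 and 5.67 reads in KO replicates 1 and 2, and of 4.59 and 4.32 reads in WT replicates 1 and 2, would be expected from the read density upstream of untested genes. The log2 fold change was 0.047 ± 0.648 (SE), with an adjusted p of 0.965 (edgeR), and a difference was not detectable from so few reads. Without KO replicate 2 it was -0.88 (adjusted p = 0.642, edgeR), so its direction is not given. The ratio of Gapdhs to Gapdh was 0.0230 and 0.0728 in KO testes, against 0.0352 and 0.0568 in WT testes, and the groups overlapped. With the longest coding transcript as length it was 0.00874 and 0.0276 in KO testes, against 0.0134 and 0.0216 in WT testes. Gapdh itself was at 24.4 and 20.5 CPM in KO testes, against 22.1 and 21.4 CPM in WT testes, and 82.5% of its windows occur in 222 other genes, so its count is uncertain.

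In WT testes the order of the 10 genes by RPKM ran from Ldhb through Ldhc, Cyct, Ldha, Pdha2, Cycs, Pgk1, Pdha1 and Pgk2 to Gapdhs. The 3 before Gapdhs lay within 5.30 to 7.13 RPKM, narrowly apart by exon length. Pgk1 and Pdha1 have 2244 and 3734 bases of exon but longest coding transcripts of 1825 and 2848 bases, by which they would overlap. The Pgk1 count also leaves out reads from the 68.0% of its windows that occur in other genes. By exon length Ldhc, at 359 and 355 RPKM, and Cyct, at 337 and 357 RPKM, overlapped in WT testes. In KO testes Cyct averaged 221 ± 11.1 RPKM and stood above Ldhc in both libraries, 229 and 213 RPKM against 209 and 184 RPKM. Both comparisons depend on the length used. Ldhc has 1580 bases of exon but a longest coding transcript of 1370 bases, while Cyct has 655 by either measure. With the transcript length Ldhc would lie above Cyct in both WT libraries and in KO replicate 1. Pdha2 averaged 40.2 ± 0.568 RPKM in KO testes and 57.1 ± 4.40 RPKM in WT testes. Pdha1 averaged 6.97 ± 0.338 RPKM in KO testes and 5.98 ± 0.423 RPKM in WT testes. Cycs averaged 17.2 ± 0.465 RPKM in KO testes and 17.0 ± 1.95 RPKM in WT testes (SD, n = 2 each).

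The genes whose levels over the 4 libraries were most like those of Ldhc were Ccdc60, Pabpc6, Ccdc65, Ankrd36 and Gstm5. Their distances ran from 0.0392 to 0.0700 (Euclidean, on centred log2 CPM), among 2324 genes whose mean CPM lay within 4-fold of that of Ldhc. Ldha ranked 33 in this order, Cyct 99, Pdha2 319 and Ldhb 1981. With 4 libraries this is a description, and genes that differ by genotype to a like degree are near each other by construction.

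**Figure D4:**
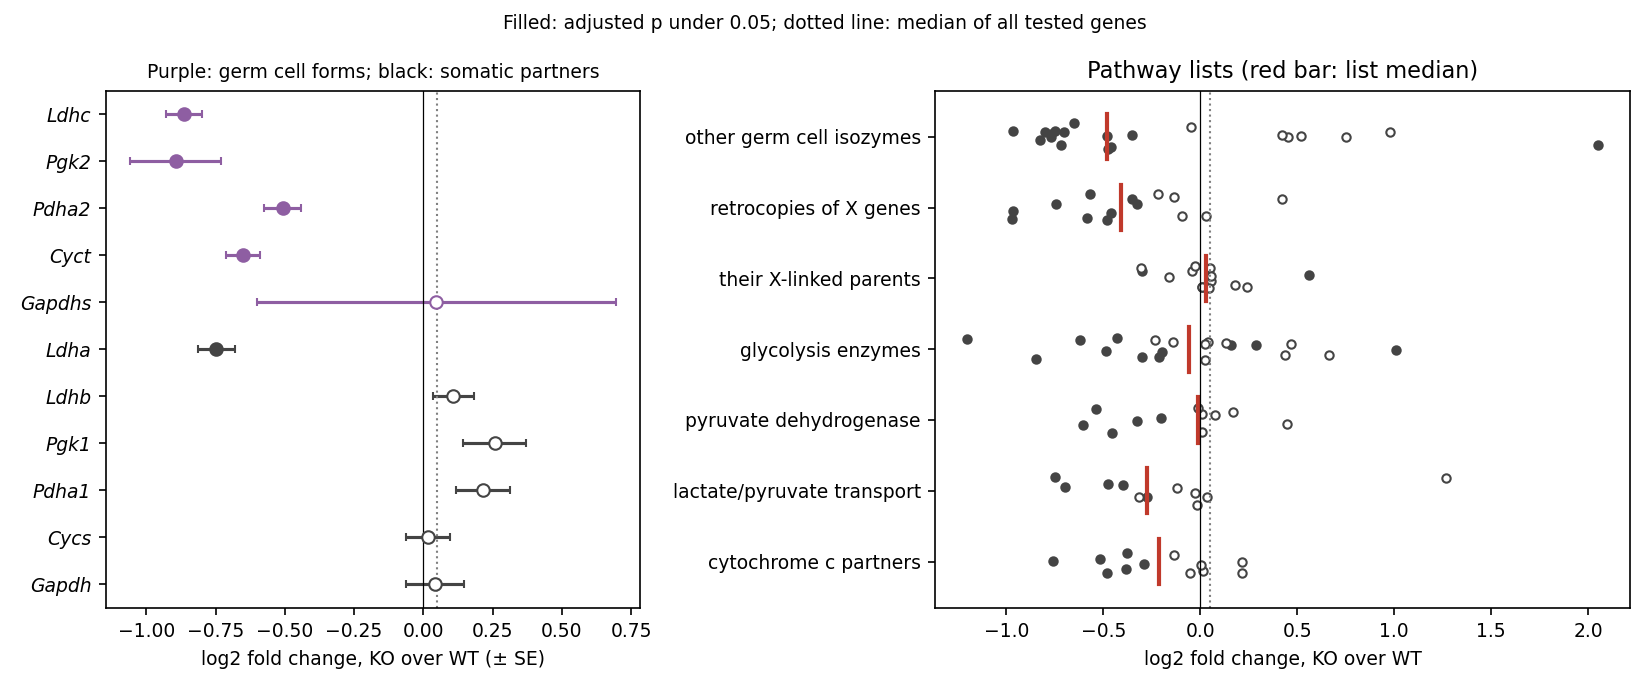
Log2 fold changes, KO over WT, of the isozyme genes with their SE (left, germ cell forms in purple) and of the genes of 7 pathway lists (right, red bars for list medians, vertical jitter only to separate points). Filled points have an adjusted p under 0.05 by edgeR; Ldhc, Pgk2, Pdha2, Cyct and Ldha lie left of 0, and the X-linked parents of retrocopies lie around it.

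The same division was looked for in other genes with a germ cell version. Counts in this and the following lists stand beside the shares of 20.3% lower and 11.6% higher over all tested genes. Of 21 other germ cell isozymes 20 were tested, 13 fell and 1 rose, with a median log2 fold change of -0.48. Among those that fell were Gk2, a glycerol kinase (-0.97), Slc2a3, the glucose transporter GLUT3 (-0.75), and Cox8c and Cox7b2, subunits of cytochrome c oxidase (-0.77 and -0.82). The member that rose, Oxct2a, a ketone body enzyme, rested on 8 and 14 reads in KO libraries against 3 and 6 reads in WT libraries, and leaving out any library removed its call. Its expected background was 5.52 and 6.19 reads in KO libraries and 5.02 and 4.72 reads in WT libraries. Background was thus no lower in KO libraries despite their fewer gene reads, which limits rises of genes with few reads.

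Of 14 autosomal copies of X-linked genes 9 fell and none rose, with a median of -0.41, including Gk2, Fam50b (-0.97), Cetn1, a centrin (-0.74), and Rpl10l, a ribosomal protein (-0.57). Of the 14 X-linked parents that were tested 1 fell and 1 rose, with a median of 0.028. Over all tested genes 20.3% fell and 11.6% rose. The parent that fell was Fam50a (-0.30) and the one that rose was Rbmx, an RNA-binding protein (0.56); the call of Fam50a was lost without WT replicate 1 (adjusted p = 0.092) or KO replicate 1 (adjusted p = 0.0587, edgeR). Lists overlap: Gk2, G6pd2, Prps1l1 and Tktl2 stand in both the isozyme and the retrocopy list.

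Among 20 glycolysis enzymes 8 fell and 3 rose, with a median of -0.060, where 20.3% of all tested genes fell and 11.6% rose. The strongest falls were those of Pgam2, the muscle-type phosphoglycerate mutase (-1.20), Eno3, the muscle-type enolase (-0.85), Pfkp, a phosphofructokinase (-0.62), and Tpi1, triosephosphate isomerase (-0.49). Hk2, a hexokinase (0.28), Eno2, an enolase (1.01), and Aldoa, an aldolase (0.16), rose. None of these 3 was called higher by DESeq2, where the adjusted p was 0.0809 for Hk2, 0.133 for Eno2 and 0.60 for Aldoa. Without WT replicate 2 the list had 5 genes called lower and 1 called higher.

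In the pyruvate dehydrogenase complex and its regulators 5 of 11 genes other than the E1 alpha forms fell and none rose. They were the catalytic subunits Pdhb (E1 beta, -0.61), Dlat (E2, -0.54) and Dld (E3, -0.21), the structural E3-binding protein Pdhx (-0.33) and the kinase Pdk2 (-0.46). The median was -0.011, and the kinases and phosphatases that did not pass the test lay between -0.011 and 0.45. Of 11 genes for transport of glucose, lactate and pyruvate, a list that also holds the enzyme gene Ldhd, 5 fell and none rose, with a median of -0.27. These included Mpc2, of the mitochondrial pyruvate carrier (-0.70), Slc16a7, a lactate transporter (-0.48), and Bsg, which encodes basigin, a chaperone of lactate transporters (-0.40). Slc2a3 and Slc16a7 stand in this list and in that of the isozymes.

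Of 12 partners of cytochrome c 6 fell and none rose, with a median of -0.21. Respiratory chain subunits among them were Cox4i1 (-0.52), Cox5a (-0.48) and Uqcrh (-0.38), and Diablo, a mitochondrial protein released in apoptosis, fell by 0.76 on the log2 scale. The caspase activator Apaf1 and Bax, a protein of apoptotic pore formation, did not pass the test (log2 fold change 0.22 each).

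Reads in the 3000 bases upstream of the genes give a second readout of these loci. Of the members, 8 have such a region in the deposited upstream counts, which list none for Cycs and Gapdhs. Per strand 6 of 8 regions passed the filter and none was called in either direction, where 0.00544% of all tested sense regions were called lower and 0.0544% higher, and 0.113% of antisense regions lower and 11.5% higher. On the antisense strand the region before Pdha2 had 43 and 50 reads in KO libraries, against 78 and 121 reads in WT libraries (log2 fold change -0.29 ± 0.255, adjusted p = 0.382, edgeR). Scaled by the TMM factors of the upstream table itself its log2 fold change was -1.25 (adjusted p = 0.0676, edgeR). The region before Ldhc had 61 and 57 antisense reads in KO libraries, against 45 and 97 reads in WT libraries (log2 fold change 0.56 ± 0.29, adjusted p = 0.154, edgeR). With the upstream table's own scaling it was -0.42 (adjusted p = 0.831, edgeR), so its direction depends on the scaling. The other regions had 3 to 32 reads per library, against an autosomal background of 8.05 to 10.6 and an X-linked background of 3.21 to 4.50 reads per region. The sense region before Cyct had 18 and 22 reads in KO libraries, against 31 and 32 reads in WT libraries. That before Ldhb had 23 and 22 reads in KO libraries, against 27 and 21 reads in WT libraries. Both lay above the autosomal background in all 4 libraries, as raw counts not scaled for depth. So did the sense regions before Ldhc, with 12 to 19 reads, and Ldha, with 15 to 17 reads. Scaled like the gene counts, the log2 fold changes were 0.13 for Cyct (adjusted p = 0.817, edgeR) and 0.68 for Ldhb (adjusted p = 0.251, edgeR). With the upstream table's own scaling they were -0.74 (adjusted p = 0.652, edgeR) and -0.17 (adjusted p = 0.970, edgeR), so these directions also depend on the scaling.

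**Figure D5:**
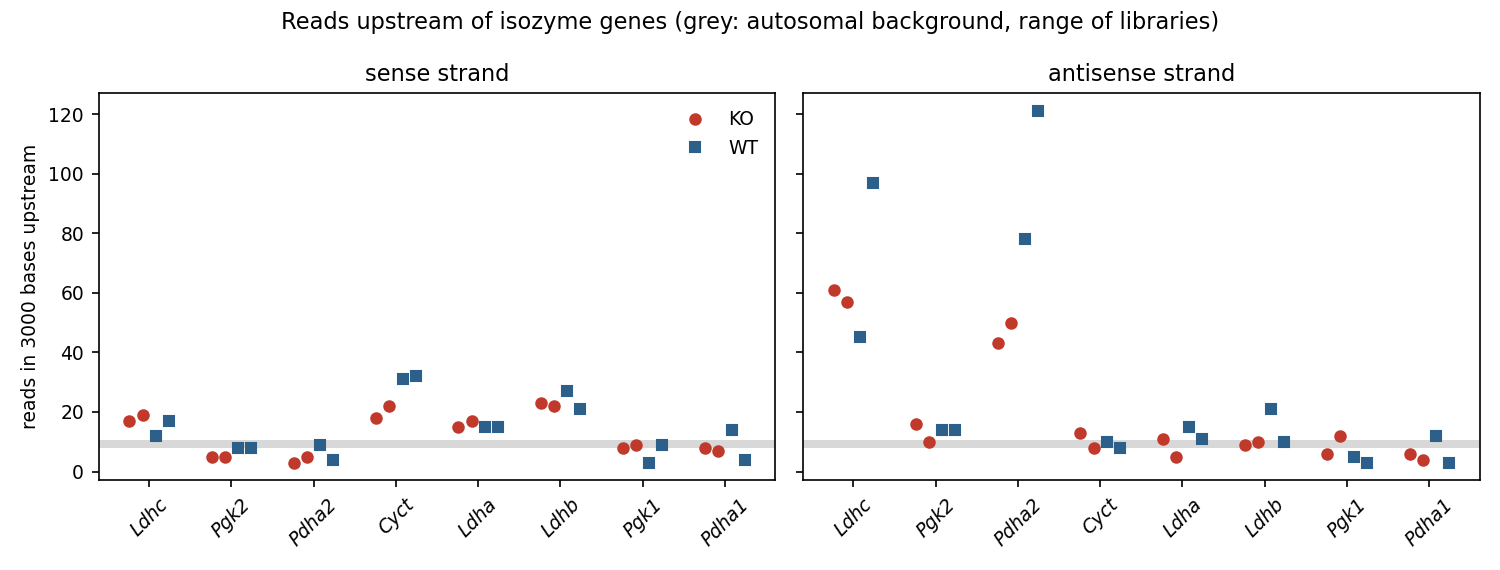
Reads in the 3000 bases upstream of 8 isozyme genes on the sense strand (left) and the antisense strand (right), with 2 KO libraries left of 2 WT libraries for each gene, as raw counts not scaled for depth. The grey band is the autosomal background of 8.05 to 10.6 reads per region; only the antisense regions of Ldhc and Pdha2 exceed 40 reads.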

How the data were processed

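Whole testes were sequenced, 2 KO and 2 WT libraries, grouped by their titles. Per the labels' protocols, random and poly(T) primers were mixed for cDNA synthesis, and libraries were stranded and depleted of unwanted transcripts. The deposited values are raw read counts per gene and per upstream region, made by the authors with featureCounts 1.6.4 on GENCODE M18, stranded and without multi-mapping reads, per the file headers. Trimming and alignment tools and the build are listed as cutadapt, HISAT2 and GRCm38.p5, per the submitters' processing notes, with no versions. The test was that of edgeR 4.0.16 under R 4.3.3 (robust quasi-likelihood fit, filterByExpr, TMM, genotype alone, Benjamini-Hochberg, threshold 0.05). It was run on simulated data with few changed genes, evenly up and down, and the same dispersion for every gene. These data differ in that, so the simulation does not show how the test performs on them. DESeq2 1.42.0 was an alternative. The SE is the fold change over the square root of F. RPKM used the exon length in the count table and TMM-scaled totals. Replicates differed by more than sampling noise (chi-square per degree of freedom 5.98 in KO and 5.04 in WT). Intervals cover counting error only. Upstream regions were tested with the gene table's scaling. The members and gene lists were chosen with earlier results of these data known. From each pathway list up to 4 called genes per direction were named, by smallest adjusted p; Dld, Emb, Apaf1, Bax and Ldhal6b were named after their values were seen. Promoters are RefSeq's (GRCm38.p6), and shared windows were searched in GENCODE M21 transcripts. Aldoa has more than 1 gene identifier, and the longest model was used.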

Additional observations from a re-analysis of the deposited data

How the results depend on the processing

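Ldhc, Pgk2, Pdha2, Cyct and Ldha kept their direction and their call in every alternative: DESeq2, other scalings, other filters, background subtraction, the replicate block and each library left out. Same-numbered libraries did not deviate together (correlation -0.0083 over 25076 genes), so the numbers are not read as pairs; with the replicate block the pyruvate dehydrogenase list had 2 genes called higher and Gapdhs a log2 fold change of -0.0014. Another scaling moved the median of all genes by -0.11 (DESeq2 and median-of-ratios) or -0.12 (Sertoli genes), and dropping the filter by -0.070. Members near 0 changed sign there. Under DESeq2, median-of-ratios, Sertoli scaling and no filter, Gapdhs was at -0.067, -0.063, -0.076 and -0.026, Cycs at -0.089, -0.089, -0.11 and -0.053, and Gapdh at -0.063, -0.064, -0.082 and -0.028; Ldhb was at -0.016 under Sertoli scaling. With libraries left out, Gapdhs ran from -0.88 to 0.54, Cycs from -0.11 to 0.10, Gapdh from -0.11 to 0.11, Ldhb from -0.056 to 0.18, and the log2 difference of Gapdhs over Gapdh from -0.96 to 0.70. The filter of 1 CPM left Gapdhs untested and called higher 3 somatic partners, 2 genes of the pyruvate dehydrogenase list and 1 cytochrome c partner, and called lower 0 X-linked parents; Ldhb then had an adjusted p of 0.0439 (edgeR). Left-out libraries gave 0 to 1 somatic partners higher, 1 to 2 glycolysis enzymes higher, 5 to 9 lower, 0 to 2 X-linked parents lower, and 0 other germ cell isozymes higher, as also with DESeq2, no filter and background subtraction. Glycolysis enzymes called higher were 0 with DESeq2 and 1 with median-of-ratios or Sertoli scaling; X-linked parents called lower were 2 with DESeq2, both scalings and no filter. Genes called higher over the whole table were 427 with DESeq2, 1930 with Sertoli scaling, 1937 without the filter, 1179 after background subtraction, and 1324 to 2429 with a library left out. Ratios kept their direction except that of Gapdhs, and the length used changes their level but not the difference between groups. Depth limits Gapdhs.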

Other observations

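Ldhal6b, an intronless gene of the lactate dehydrogenase family, was at 254 and 214 CPM in KO testes, against 389 and 409 CPM in WT testes, a log2 fold change of -0.77 ± 0.07 (SE; adjusted p = 4.64e-08, edgeR). It was picked out after its values were seen. Both KO libraries lay below both WT libraries, as for Ldhc and Ldha. Emb, embigin, which like basigin accompanies lactate transporters to the cell surface, had 61.6 and 60.5 CPM in KO testes, against 77.9 and 69.9 CPM in WT testes (log2 fold change -0.27, adjusted p = 0.00545, edgeR).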
